A study of Mus musculus with 47 samples.

Results

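The genes described here are 9 markers of mast cells. They are the chymases Mcpt1, Mcpt2, Mcpt4 and Cma1, the carboxypeptidase Cpa3, the tryptase Tpsb2, the growth factor receptor Kit, and the IgE receptor chains Fcer1a and Ms4a2. They were taken by symbol from a table of read counts per gene, and all 9 were found among its 24062 gene symbols. The counts come from RNA sequencing of mouse intestine in 39 tissue libraries, which form 13 groups of 3 from mice aged 15 to 19 weeks. Wild-type mucosa came from mice with the wild-type Apc gene. Mucosa outside the tumours (Min mucosa) and adenoma tissue came from mice that carry the Apc Min allele, which causes intestinal adenomas. These 3 tissues were sampled in 4 genetic backgrounds. B6 is C57BL/6, and C5 is the strain with chromosome 5 of PWD/Ph on an otherwise C57BL/6 genome. C5F1 is the F1 of B6 and C5, and B6xPWD is the F1 of C57BL/6 and PWD. PWD/Ph itself was sampled as wild-type mucosa only. No tissue group was treated. The labels give no position along the gut and do not say whether the 3 libraries of a group came from separate mice. The p-values therefore measure the spread between these libraries, which may be partly technical.

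Mast cells are tissue-resident immune cells that store proteases in granules and release them when IgE bound to their surface receptor is crosslinked. In mice, the intestinal epithelium and lamina propria hold mucosal mast cells, which are known for the chymases Mcpt1 and Mcpt2. Connective tissue mast cells are known for Mcpt4, Cma1, Tpsb2 and Cpa3. Both kinds depend on Kit, the receptor for stem cell factor (encoded by Kitl), and both are fed by cytokines such as interleukin 33, whose receptor is encoded by Il1rl1.

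The 4 chymase genes lie in a cluster on chromosome 14 (GENCODE vM21, GRCm38). Mcpt1 spans chr14:56017971-56020384 and Mcpt2 spans chr14:56042041-56044642, both on the plus strand. Mcpt4 (chr14:56059629-56062313) and Cma1 (chr14:55941451-55944675) are on the minus strand. Cpa3 lies at chr3:20215620-20242181, Tpsb2 at chr17:25366305-25369098, Fcer1a at chr1:173221284-173227214 and Ms4a2 at chr19:11615523-11623719. Kit, at chr5:75574916-75656722, is the only member on chromosome 5, the chromosome exchanged in C5. In C5 the other 8 genes are thus on C57BL/6 chromosomes, as far as the labels describe the strain.

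The 250 bases before the RefSeq start site (GRCm38.p6) are shown for Mcpt1 and Mcpt4, 2 chymases that lie in 1 cluster and differ in level, and for Cpa3 and Ms4a2, 2 members outside it. Capitals mark matches to AGATAA or TGATAA, the core that GATA factors bind, on either strand. Gata2 is the GATA factor known for mast cells.
Mcpt1 (chr14:56017714-56017963, plus strand): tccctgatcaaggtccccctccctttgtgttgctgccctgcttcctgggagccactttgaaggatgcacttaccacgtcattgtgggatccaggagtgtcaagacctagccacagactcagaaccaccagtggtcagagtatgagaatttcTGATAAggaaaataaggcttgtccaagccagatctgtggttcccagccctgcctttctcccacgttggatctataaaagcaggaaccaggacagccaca
Mcpt4 (chr14:56062311-56062560, minus strand): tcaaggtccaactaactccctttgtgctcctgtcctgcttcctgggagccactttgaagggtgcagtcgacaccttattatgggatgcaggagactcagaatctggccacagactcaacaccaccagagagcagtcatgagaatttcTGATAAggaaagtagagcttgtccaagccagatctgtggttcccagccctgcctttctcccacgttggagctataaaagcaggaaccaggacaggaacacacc
Cpa3 (chr3:20242182-20242431, minus strand): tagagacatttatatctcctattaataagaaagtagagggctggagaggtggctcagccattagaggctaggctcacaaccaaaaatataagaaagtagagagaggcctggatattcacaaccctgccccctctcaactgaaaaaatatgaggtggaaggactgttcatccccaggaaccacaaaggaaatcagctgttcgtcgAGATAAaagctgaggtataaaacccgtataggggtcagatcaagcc
Ms4a2 (chr19:11623720-11623969, minus strand): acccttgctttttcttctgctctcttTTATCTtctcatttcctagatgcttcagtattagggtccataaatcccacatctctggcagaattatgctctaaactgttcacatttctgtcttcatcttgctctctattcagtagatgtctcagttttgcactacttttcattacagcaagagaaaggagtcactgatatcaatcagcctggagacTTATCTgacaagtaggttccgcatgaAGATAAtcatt
Each of these 4 windows held at least 1 match. TGATAA stood 99 to 94 bases before the start of Mcpt1 and 103 to 98 bases before that of Mcpt4, inside a stretch that the 2 genes share. Over 246 aligned bases the 2 promoters were 84.1% identical, with 53 identical bases in their longest shared run. Ms4a2 held 3 matches, and Cpa3 held 1 at 46 to 41 bases before its start. Fcer1a also held AGATAA, along with CATGTG, an E-box of the kind that MITF binds. The windows of Cma1 and Kit, which are not printed, held no match to these motifs or to the E-box CACGTG. The 4 printed windows therefore overstate how common a match is among the members. Among 32851 promoters of the same length, 16.6% held AGATAA or TGATAA and 17.6% held CACGTG or CATGTG, on either strand. A match is a run of letters and not a measured site.

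The gene counts of a tissue library summed to 2726505 to 20070696 (median 5831947), and 16.4 to 72.7% of them came from the ribosomal precursor Rn45s. Levels below are CPM, the gene counts scaled to a common library depth with TMM factors, and CPM per kilobase of exon where genes are compared. Chymase genes resemble each other, so reads could be shared between copies. Of the 36-base windows of the Mcpt1 transcript, 4.0% occurred unchanged in another chymase or tryptase transcript. The share was 2.0% for Mcpt2, 9.4% for Mcpt4 and 0% for Cma1 and Tpsb2, so the Mcpt4 values are the least certain of these. Only 7 members had enough counts to be tested. Fcer1a and Ms4a2 did not pass the filter on low counts and are given by their counts.

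Per kilobase, Mcpt1 had the highest mean of the members over all 39 libraries, with a mean of 18.9 CPM per kilobase, followed by Mcpt2 at 9.83 and Kit at 4.47. Kit was nonetheless above Mcpt1 in 24 of the 39 libraries, all those of C5 and PWD among them, since the mean of Mcpt1 rests on the libraries where it is high. The other 6 means lay below 1, from Cpa3 at 0.805 through Cma1 at 0.484, Mcpt4 at 0.426, Fcer1a at 0.377 and Tpsb2 at 0.342 to Ms4a2 at 0.101. Mcpt1 and Mcpt2 together made up 89.3% of the 7336 reads of the 8 members other than Kit. The mean hides a large spread, because these 8 genes were close to 0 in most libraries and high in a few. Their summed level was 0 to 7.04 CPM in the 15 wild-type libraries, 0 to 72.4 CPM (median 1.30) in the 12 Min mucosa libraries and 0.700 to 324.5 CPM (median 45.4) in the 12 adenomas. Kit behaved differently and stayed between 19.9 and 60.01 CPM in all 39 libraries. Since these are whole tissue samples, fewer mast cells and less RNA per cell cannot be told apart.

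**Figure D1:**
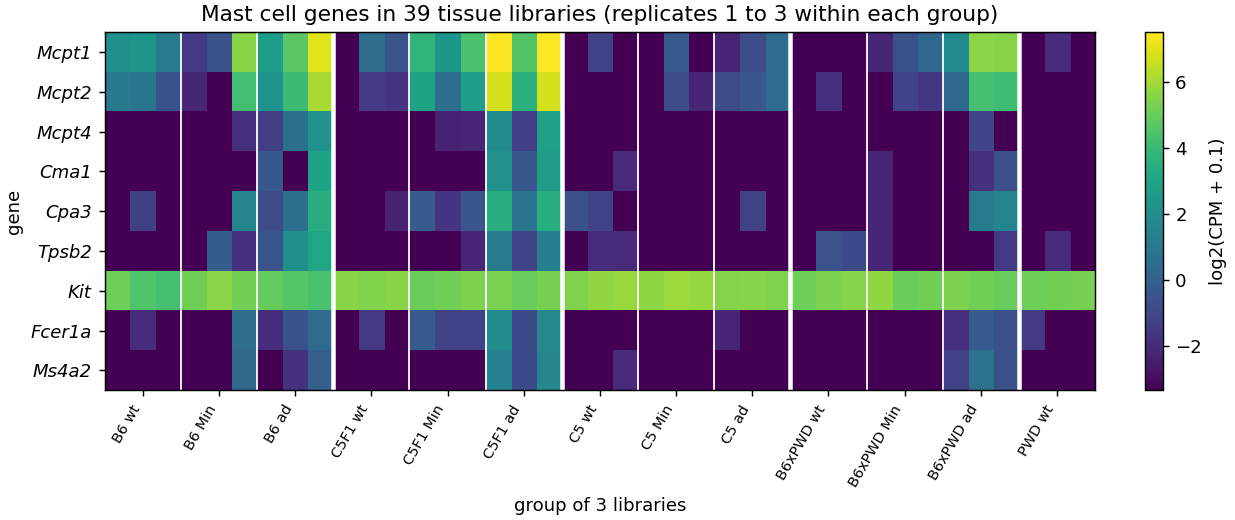
Level of each mast cell gene in each of the 39 tissue libraries, as log2(CPM + 0.1), with 3 libraries per group (wt, wild-type mucosa; Min, Min mucosa; ad, adenoma). Kit has reads in every library at 19.9 to 60.01 CPM, while Mcpt1 and Mcpt2 are high in adenomas of B6, C5F1 and B6xPWD and all 8 other genes are at or near 0 in C5 and PWD.

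Adenoma was compared with Min mucosa to ask how these genes differ in the tumour. The chymases Mcpt1 and Mcpt2 and the carboxypeptidase Cpa3 rose over the mean of the 4 backgrounds, and C5 tissue held few reads of any protease. Taking replicate numbers as pairs, the summed level of the 8 genes was higher in adenoma in 12 of 12 pairs. The smallest step was in C5, where it went from 0.450 ± 0.672 to 1.57 ± 0.918 CPM (SD, n = 3 each). In C5F1 it went from 19.7 ± 11.3 to 227 ± 163 CPM (SD, n = 3 each). The adenomas of 1 background also differed widely among themselves. In B6 they held 13.5, 51.5 and 229 CPM at Rn45s shares of 36.2, 38.1 and 50.8% (replicates 1, 2 and 3). In B6xPWD they held 5.31, 73.6 and 69.3 CPM at Rn45s shares of 50.9, 41 and 54%. The part of library makeup in this spread was not tested.

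**Figure D2:**
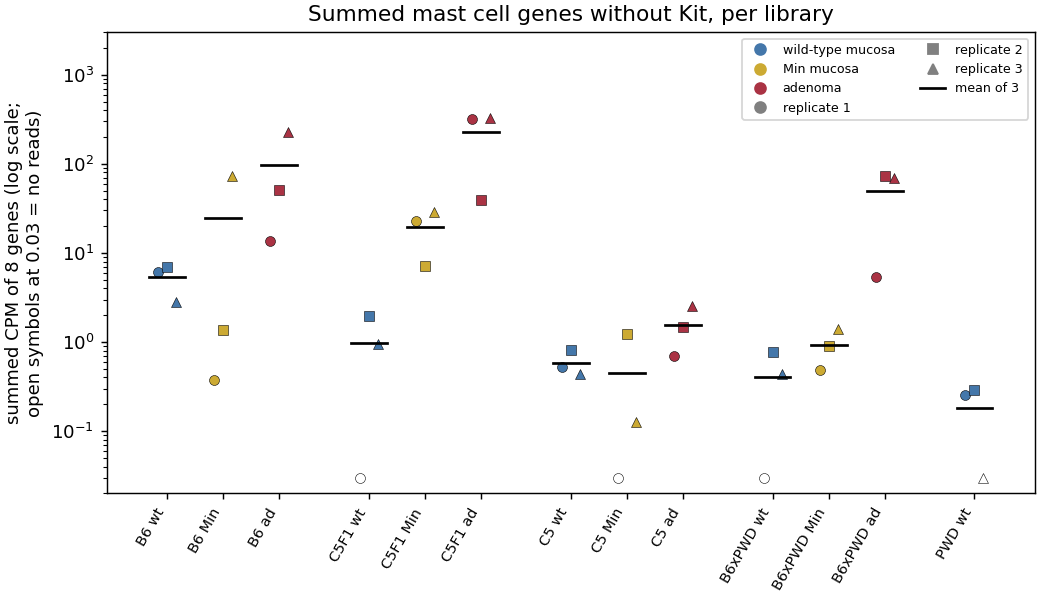
Summed CPM of the 8 mast cell genes without Kit, 1 point per library on a log axis, with the mean of each group of 3 as a line; open symbols stand for libraries with no reads. Adenomas of B6, C5F1 and B6xPWD lie between 5.31 and 324.5 CPM, and those of C5 between 0.700 and 2.53 CPM.

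Mcpt1, the chymase that mucosal mast cells release into the blood in worm infections, was at 6.52, 26.4 and 126 CPM in B6 adenoma (replicates 1, 2 and 3) and at 0.251, 0.548 and 48.1 CPM in B6 Min mucosa. C5F1 adenomas had 177, 23.3 and 182 CPM and C5F1 Min mucosa 13.7, 5.03 and 21.3 CPM. B6xPWD adenomas had 3.6, 48.7 and 47.1 CPM and B6xPWD Min mucosa 0.123, 0.535 and 1.17 CPM. Adenoma and Min mucosa did not overlap in C5F1 or B6xPWD, while in B6 the third Min mucosa library lay above 2 of the 3 adenomas. Of all genes tested, 40.3% did not overlap in C5F1 and 27.8% in B6xPWD. In C5 Mcpt1 was at 0.117, 0.496 and 1.26 CPM in adenoma, from 10 reads in all, and at 0, 0.733 and 0 CPM in Min mucosa.

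Over the mean of the 4 backgrounds Mcpt1 rose by 2.95 ± 0.9995 on the log2 scale (SE; edgeR quasi-likelihood test, adjusted p = 0.0166; higher in 11 of 12 pairs). Mcpt2, its neighbour and close relative, rose by 3.52 ± 0.87 (adjusted p = 0.00157; higher in 12 of 12 pairs). Cpa3, which trims the C-terminal ends of peptides in the same granules, rose by 3.33 ± 1.30 (adjusted p = 0.0387; higher in 9 of 12 pairs). Kit fell by 0.29 ± 0.09 (adjusted p = 0.0115; lower in 10 of 12 pairs). These 4 of 7 tested members, 3 higher and 1 lower, compare with 45.2% of all 13657 genes called in this comparison, 23.7% higher and 21.5% lower. For Mcpt1 the call was lost without the third C5 adenoma (2.71, adjusted p = 0.126), and for Cpa3 without the third B6xPWD adenoma (3.16, adjusted p = 0.0526). Without the second C5 adenoma, which held the only C5 reads of Cpa3 in these tissues, Cpa3 gave no test. Without the third B6 adenoma the changes of Mcpt1, Mcpt2 and Cpa3 were 2.5, 3.12 and 2.77, and without the third B6 Min mucosa library 4.26, 5.05 and 4.70.

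Mcpt4, Cma1 and Tpsb2 gave no such test, because they had no reads in the adenomas and Min mucosa of C5. Summed over the 12 libraries on each side, Mcpt4 had 110 reads in adenoma and 3 in Min mucosa, a pooled ratio of 29.5 (95% interval 9.84 to 145). Cma1, the mouse alpha-chymase, had 128 reads against 1, a ratio of 103 with an interval from 18.2 upwards. Tpsb2, a tryptase, had 111 reads against 9, a ratio of 9.93 (5.05 to 22.3). Such intervals cover counting error only and not the spread between libraries. The reads of these 3 genes came mostly from B6 and C5F1. In B6xPWD adenoma and Min mucosa Mcpt4 had 2 and 0 reads, Cma1 3 and 1, and Tpsb2 1 and 1. A model with 1 adenoma effect shared by the 4 backgrounds, added after the values were seen, did allow a test. C5 adds nothing to this model for these 3 genes. In it Mcpt4 rose by 4.61 ± 0.90, Cma1 by 5.62 ± 1.09 and Tpsb2 by 3.43 ± 0.77 on the log2 scale (SE; edgeR quasi-likelihood test, adjusted p = 0.000317, 0.000302 and 0.00115). That model called all 7 tested members named so far, 6 higher and Kit lower, where 46.9% of all genes were called. Ms4a2 passed the filter there and was not called (2.49 ± 1.02, adjusted p = 0.0516).

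The IgE receptor chains had few reads. Fcer1a, the chain that binds IgE, had 65 reads in adenoma and 15 in Min mucosa, a pooled ratio of 3.49 (95% interval 1.97 to 6.59), and was higher in 9 of 12 pairs. Ms4a2, the signal-amplifying beta chain, had 55 reads against 7, a ratio of 6.33 (2.87 to 16.5). In Min mucosa all 7 of those reads came from the third B6 library. Fcer1g, the gamma chain that other leukocytes share, was not called (3.996 ± 1.41 against 5.21 ± 2.49 CPM, SD, n = 12 each; log2 change -0.40, edgeR quasi-likelihood adjusted p = 0.123).

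**Figure D3:**
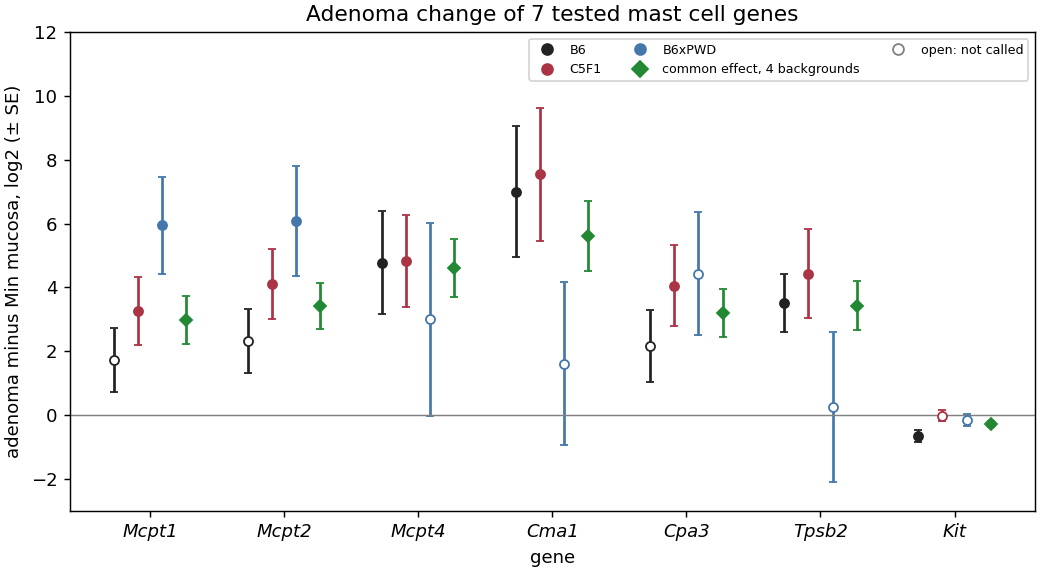
Adenoma minus Min mucosa on the log2 scale (± SE) for the 7 tested mast cell genes in B6, C5F1 and B6xPWD, and for 1 effect shared by all 4 backgrounds; filled circles were called at an adjusted p under 0.05. The 6 protease genes lie above 0, with the error bars of Mcpt4, Cma1 and Tpsb2 in B6xPWD reaching below it, and Kit lies at or below 0; the sizes for Cma1 in B6 and C5F1 and for Mcpt4 in B6xPWD, with 0 reads in Min mucosa, depend on the prior count; C5 is left out because 3 genes had no reads there.

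In B6 alone, 4 of 7 tested members were called, 3 higher and 1 lower, against 26.7% of all genes. The 3 higher ones, Tpsb2, Mcpt4 and Cma1, passed the filter only through adenomas of B6 and C5F1. Tpsb2 was at 0.612, 4.18 and 8.33 CPM in adenoma and 0, 0.822 and 0.175 CPM in Min mucosa (log2 change 3.51 ± 0.92, edgeR quasi-likelihood adjusted p = 0.00639). Mcpt4 had 39 reads against 1 (adjusted p = 0.0386), a ratio of 20.8 with an interval from 3.52 upwards. Cma1 had 56 reads against 0 (adjusted p = 0.0189), at least 9.94-fold higher against a floor of 3 reads over the group. Kit fell by 0.66 ± 0.18 (adjusted p = 0.00816) with no overlap, as for 41.7% of all genes tested. Mcpt1 (1.72 ± 1.001, adjusted p = 0.216), Mcpt2 (2.32 ± 1.004, adjusted p = 0.0873) and Cpa3 (2.17 ± 1.13, adjusted p = 0.162) were not called. The third B6 Min mucosa library held 414 reads of the 8 genes (72.4 CPM), while the others held 3 and 10. With the replicate number as a block, 7 members were called, Mcpt1 (2.39, adjusted p = 0.0156), Mcpt2 (2.86, adjusted p = 0.00153) and Cpa3 (2.48, adjusted p = 0.018) among them. That block also ties in the same-numbered wild-type libraries, so it is not a test of adenoma and Min mucosa pairs alone. Without the block, the count was 6 without the third Min mucosa library, 2 without the first, and 1 without the second or without the third adenoma, where Tpsb2 was at adjusted p = 0.0614. In the B6 Min mucosa Gata4, a gene of the proximal small intestine chosen here after its values were seen, was at 0 to 0.875 CPM, and in B6 adenoma at 1.07 to 25.4 CPM; the part of gut position in these differences was not tested.

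In C5F1 6 of 7 tested members were called higher, against 20.5% of all genes (10.9% higher and 9.66% lower), and 7 of the 9 members did not overlap (6 of the 7 tested, where 40.3% of all genes tested did not overlap). Among them, Mcpt4, Cma1 and Tpsb2 passed the filter only through adenomas of B6 and C5F1. Mcpt2 was at 114, 12.1 and 108 CPM in adenoma and 7.60, 1.42 and 6.53 CPM in Min mucosa (log2 change 4.10 ± 1.10, edgeR quasi-likelihood adjusted p = 0.00807). Cpa3 was at 10.8, 1.64 and 11.4 CPM in adenoma and 0.760, 0.219 and 0.616 CPM in Min mucosa (4.06 ± 1.26, adjusted p = 0.0228). Mcpt1 rose by 3.26 ± 1.07 (adjusted p = 0.0289), Mcpt4 by 4.83 ± 1.44 (0.0254) and Tpsb2 by 4.43 ± 1.40 (0.0255). The latter 2 rest on 2 reads and 1 read in Min mucosa, with pooled ratios of 26.6 (95% interval 7.08 to 224) and 23.9 (from 3.98 upwards). Cma1 had 69 reads against 0, at least 17.7-fold higher, and Ms4a2 had 38 reads against 0, at least 9.75-fold higher. Kit was not called (37.0 ± 4.18 against 36.9 ± 3.76 CPM, SD, n = 3 each; adjusted p = 0.97). The second adenoma library was the lowest for all 9 members, Kit included (32.2 CPM, against 39.8 and 38.96 CPM). It also had the lowest Rn45s share of these adenomas (28.8%, against 57.7 and 56.4%). No member was called without the second Min mucosa library (adjusted p from 0.0644 for Mcpt2 to 0.142 for Tpsb2), 1 without the third adenoma or the third Min mucosa library, and 3 without the first adenoma.

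In B6xPWD 2 of 7 tested members were called, both higher, against 16.4% of all genes (9.43% higher and 6.98% lower). Mcpt1 rose by 5.95 ± 1.52 on the log2 scale (edgeR quasi-likelihood adjusted p = 0.00708), from 9 to 452 reads. Mcpt2 rose by 6.07 ± 1.72 (adjusted p = 0.0152), from 3 to 176 reads, a pooled ratio of 71.4 (95% interval 24 to 350). Cpa3 had 22 reads against 1 (a ratio of 26.8, from 4.33 upwards) and was called only with the replicate number as a block (4.10, adjusted p = 0.0284, against 0.117 without it). That block also included the wild-type libraries. Of the proteases known from connective tissue mast cells, Mcpt4, Cma1 and Tpsb2 were scarce, while Cpa3 had the 22 reads given above. The 3 adenomas held 2 reads of Mcpt4, 3 of Cma1 and 1 of Tpsb2, none of them called. Mcpt2 was not called without the first (adjusted p = 0.0688) or the third Min mucosa library (0.0502). The first B6xPWD adenoma stood apart, with a summed level of 5.31 CPM against 73.6 and 69.3 CPM in the others. That library also had the highest level of the leukocyte gene Ptprc of all 39 (155 CPM, against 11.8 and 10.01 CPM in the other B6xPWD adenomas); its part in the difference was not tested. All 6 general leukocyte genes were called higher in B6xPWD adenoma, among them Coro1a (1.94 ± 0.54, edgeR quasi-likelihood adjusted p = 0.0115) and Ptprc (1.77 ± 0.59, adjusted p = 0.0362). Their summed level was 551 CPM in the first adenoma, 41.2 and 60.3 CPM in the others and 47.3 to 73.9 CPM in Min mucosa. Without that first adenoma Mcpt1 and Mcpt2 were still called.

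In C5 none of the 7 tested members was called by edgeR, by DESeq2 or at an unadjusted p under 0.05, where 2.77% of all genes were called (2.59% higher and 0.176% lower); 3 of the 7 gave no information because both groups were at 0. Mcpt2 was at 0.466, 0.661 and 1.26 CPM in adenoma and 0, 0.489 and 0.126 CPM in Min mucosa, from 14 and 5 reads. Mcpt4, Cma1, Tpsb2 and Ms4a2 had no reads in either tissue, which allows up to 0.155 CPM in the adenomas and 0.142 CPM in the Min mucosa (3 reads over each group). The test of the difference between backgrounds, the adenoma effect in C5, C5F1 or B6xPWD minus that in B6, called no member with edgeR or DESeq2 (0, 1 and 1 members at an unadjusted p under 0.05). Of all genes it called 0.110% for C5 (0.0732% higher and 0.0366% lower), 0% for C5F1 and 0.630% for B6xPWD (0.476% higher and 0.154% lower). For C5 it gave no information on Mcpt4, Cma1 and Tpsb2, and for C5F1 none on Cma1. A difference in the adenoma effect was thus not shown, and these 3 comparisons share the B6 libraries.

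C5 adenomas held 27 reads of the 8 genes other than Kit and B6 adenomas held 1740. All 7 tested members were called in C5 against B6 adenoma, 6 lower and Kit higher, where 17.8% of all genes were called, 9.49% higher and 8.28% lower. Mcpt4, Cma1 and Tpsb2 passed the filter only through adenomas of B6 and C5F1, so their calls add little to that count. Mcpt1 was lower, with a log2 change of -6.56 ± 1.48 (0.626 ± 0.585 against 53.1 ± 64.2 CPM, SD, n = 3 each; edgeR quasi-likelihood adjusted p = 0.00275). Mcpt2 (-5.28 ± 1.31, adjusted p = 0.00607) and Cpa3 were also lower (-4.95 ± 1.55, adjusted p = 0.0281). Tpsb2 had 0 reads against 79 (adjusted p = 0.00121), Cma1 0 against 56 (0.0312) and Mcpt4 0 against 39 (0.0363), at least 13-fold, 9.18-fold and 6.4-fold lower. Cpa3 rests on 2 reads against 72, a pooled ratio of 0.0565 (95% interval 0.00671 to 0.211). Fcer1a had 1 read against 14, a ratio of 0.145 (0.00343 to 0.954), and Ms4a2 had 0 against 5. C5 and B6 adenomas did not overlap for 7 of the 9 members (6 of the 7 tested, where 40.5% of all genes tested did not overlap); the exceptions were Cma1, which had no reads in the second B6 adenoma, and Ms4a2, which had none in the first. DESeq2 called 4 of the 7 and not Mcpt4 (adjusted p = 0.426), Cma1 (0.566) or Cpa3 (0.0981). With only the compared groups fitted, Mcpt1, Mcpt2 and Kit were called and the other 4 were not tested. This comparison was added after the values were seen.

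Mcpt1, Tpsb2 and Kit were called in C5 against B6 adenoma whichever of the 6 libraries was left out. The other 4 were lost without the third B6 adenoma (adjusted p = 0.0584 for Mcpt2, 0.124 for Mcpt4, 0.119 for Cma1 and 0.279 for Cpa3), which held 1073 of the 1740 B6 reads. Without the first C5 adenoma Mcpt4 (0.0948), Cma1 (0.0848) and Cpa3 (0.105) were lost, and likewise without the third (0.0826, 0.0756 and 0.0911). Without the second C5 adenoma Mcpt4 (0.0798) and Cma1 (0.0727) were lost, and without the second B6 adenoma Mcpt4 (0.0621).

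C5F1 adenomas, which carry 1 C57BL/6 copy of chromosome 5, had high levels. Against C5F1 adenoma, C5 adenoma was lower in Mcpt1 (log2 change -7.84 ± 1.49), Mcpt2 (-6.68 ± 1.31) and Cpa3 (-5.96 ± 1.48; edgeR quasi-likelihood adjusted p = 0.00985, 0.0125 and 0.0439). These 3 of 7 tested members compare with 1.02% of all genes called (0.608% higher and 0.410% lower). Cpa3 rests on 2 reads against 142, a pooled ratio of 0.0175 (95% interval 0.0021 to 0.0645). All 9 members separated the 3 C5 from the 3 C5F1 adenomas with no overlap, 8 of them lower in C5 and Kit higher; 24.7% of all genes tested did not overlap there. With the replicate number as a block Cma1 was also called (adjusted p = 0.0191, against 0.0875 without it). That block ties same-numbered libraries of different backgrounds, which no label pairs, so this call has no pairing behind it. No member was called without the third C5F1 adenoma (adjusted p = 0.0561 for Mcpt1), the second C5 adenoma (0.061) or the third C5 adenoma (0.0874), and 5 were called without the second C5F1 adenoma. Cpa3 was also lost without the first C5F1 (0.107) or first C5 adenoma (0.127).

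Between C5F1 and B6 adenomas no tested member was called by edgeR or DESeq2 (1 at an unadjusted p under 0.05; 0.483% of all genes called, 0.278% higher and 0.205% lower). In B6xPWD against B6 adenoma only Tpsb2 was called, with 1 read against 79, a pooled ratio of 0.0337 with a 95% interval of 0.000842 to 0.193 (log2 change -5.52 ± 1.27, edgeR quasi-likelihood adjusted p = 0.0042), where 16.9% of all genes were called (9.95% higher and 6.98% lower). Without the first B6 adenoma, or without the third B6xPWD adenoma, 2 members were called. Mcpt1 in these adenomas was 33.1 ± 25.6 against 53.1 ± 64.2 CPM (SD, n = 3 each; adjusted p = 0.693). Tpsb2 took 79 of 1740 reads of the 8 genes in B6 adenoma, 31 of 3978 in C5F1 adenoma and 1 of 675 in B6xPWD adenoma. The ratio of Mcpt1 to Mcpt2 reads was 1.67 in B6 and in C5F1 adenoma and 2.57 in B6xPWD adenoma.

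**Figure D4:**
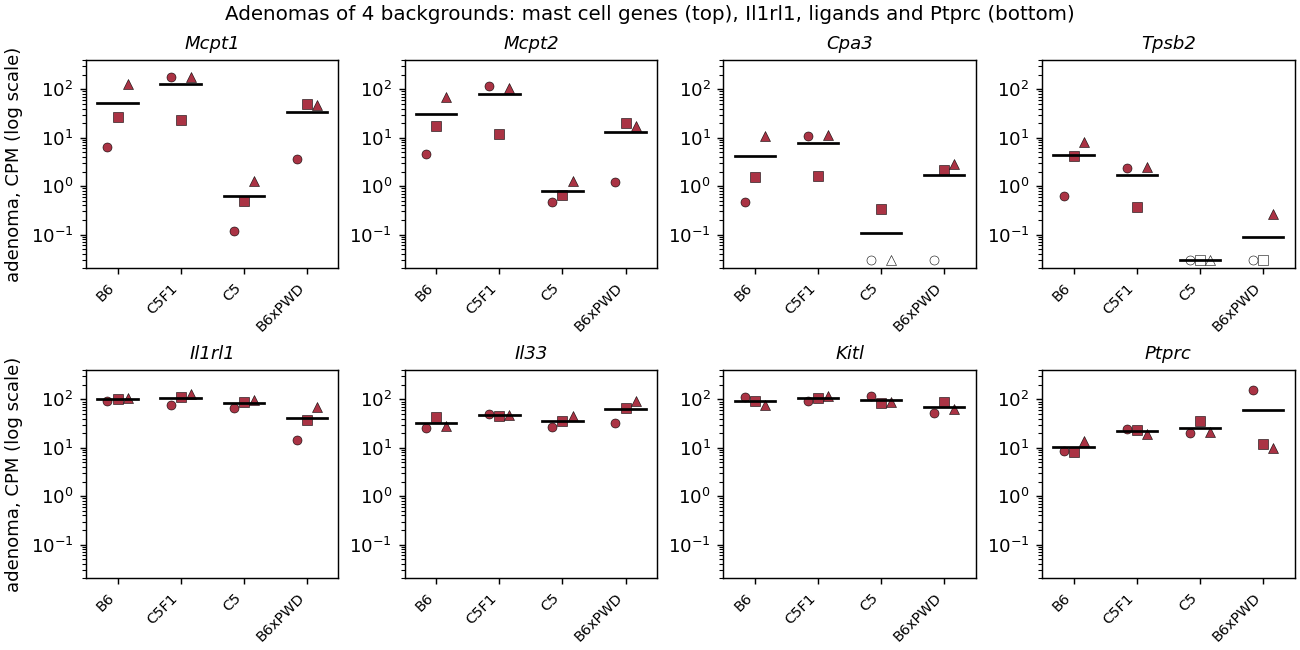
CPM on a log axis in the 3 adenoma libraries of each background, with group means as lines and open symbols at 0.03 for no reads; top row, mast cell proteases; bottom row, the interleukin 33 receptor gene Il1rl1, the ligand genes Il33 and Kitl, and the leukocyte gene Ptprc. The proteases are lowest in C5, whereas Il1rl1, Il33 and Kitl in C5 lie within or close to the range of the B6 adenomas.

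Beside the low proteases of C5 adenomas, Il33, Kitl and Il1rl1 were not called between C5 and B6 adenomas. Il33 was at 26.4, 35.2 and 45.5 CPM in C5 adenoma and 25.6, 43.7 and 28.0 CPM in B6 adenoma (log2 change 0.14 ± 0.40, edgeR quasi-likelihood adjusted p = 0.855). Kitl was at 119, 82.6 and 89.6 CPM in C5 adenoma and 109, 93.3 and 77.1 CPM in B6 adenoma (0.05 ± 0.19, adjusted p = 0.886). Il1rl1, which cells other than mast cells also express, was at 65.2, 86.9 and 98.9 CPM in C5 and 93.4, 99.6 and 107 CPM in B6 adenoma (-0.26 ± 0.40, adjusted p = 0.705). Gata2 was at 0.624 ± 0.265 against 1.16 ± 1.10 CPM (SD, n = 3 each; adjusted p = 0.43) and Hdc, which makes histamine, at 1.67 ± 0.857 against 1.43 ± 0.245 CPM (adjusted p = 0.874). Of 12 tested growth and homing factors, Ccr3 was higher (2.997, adjusted p = 0.00229) and Il3ra, a subunit of the interleukin 3 receptor, lower (-2.04, adjusted p = 0.0149) in C5 than in B6 adenoma. General leukocyte genes were not called (0 of 6 by edgeR); their summed level was 70.2 to 118.8 CPM in C5 and 48.8 to 92.0 CPM in B6 adenoma.

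Other tissue markers also moved between C5 and B6 adenomas. The smooth muscle genes Mylk (302 against 122 CPM, adjusted p = 0.0116) and Lmod1 (12.5 against 4.30 CPM, adjusted p = 0.0185) were higher in C5, as 2 of 10 tested in that list, and the absorptive cell gene Vil1 was higher (1009 against 365 CPM, edgeR quasi-likelihood adjusted p = 0.000105). Fabp6, a gene of the distal ileum chosen here after its values were seen, was at 1100 to 1280 CPM in C5 and 315 to 458 CPM in B6 adenoma, and Gata4 at 12.4 to 55.4 and 1.07 to 25.4 CPM. Lower in C5 adenoma were the endothelial gene Tie1 (5.53 against 11.8 CPM, adjusted p = 0.0326), with 6 of 6 endothelial genes below 0 and 1 called, and the neutrophil gene Ltf (3.25 against 12.5 CPM, adjusted p = 0.0486). Ltf was the only gene called of 5 tested neutrophil markers, of which 2 lay above 0 and 3 below. The part of tissue makeup or gut position in the mast cell gene difference was not tested.

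Taking the mean of the 3 tissues, C5 was lower than B6 in Mcpt1 (log2 change -5.67 ± 1.04) and Mcpt2 (-5.42 ± 1.24; edgeR quasi-likelihood adjusted p = 0.000438 and 0.00372) and higher in Kit. Of all genes 18.6% were called, 10.3% higher and 8.36% lower. Mcpt2 was lost without the third B6 Min mucosa library (adjusted p = 0.365), while Mcpt1 was called without each of the 18 libraries in turn, with a log2 change from -6.99 (without the second C5 Min mucosa library) to -3.92 (without the third B6 Min mucosa library, adjusted p = 0.039). In B6xPWD Mcpt1 (-4.43 ± 1.25, adjusted p = 0.00648) and Mcpt2 (-3.43 ± 1.14, adjusted p = 0.0208) were called lower than in B6, where 34.8% of all genes were called (18.7% higher and 16.1% lower). Those 2 calls were lost without the third B6 Min mucosa library (adjusted p = 0.183 and 0.624) and under 1 effect shared by the 3 tissues (-2.33 with 0.0772, and -2.30 with 0.0614). The fitted size also rests on wild-type mucosa, where B6xPWD had 0 reads of Mcpt1 and B6 had 62. In C5F1 no protease was called against B6, where 11.5% of all genes were called (5.91% higher and 5.62% lower). These comparisons share the B6 libraries.

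Mucosa of mice without the Min allele held few reads of the 8 genes, 90 in B6, 24 in C5F1, 9 in C5, 6 in B6xPWD and 3 in PWD. Mcpt1 was at 4.22, 4.80 and 2.27 CPM in B6 wild-type mucosa and 0, 0.144 and 0 CPM in PWD, with no overlap, from 62 reads and 1 read (pooled ratio of PWD to B6 0.0167, 95% interval 0.000416 to 0.0964). Of all genes tested, 29.2% did not overlap there. Between PWD and B6 no tested member was called by edgeR (Mcpt1 adjusted p = 0.158; 2 members at an unadjusted p under 0.05; 18.7% of all genes called, 9.96% higher and 8.79% lower), whereas DESeq2 called Mcpt1 (adjusted p = 0.0217) and Mcpt2 (0.0416) lower in PWD. Without the first B6 library edgeR called 1 member. Mcpt2 had 0 reads in PWD against 25 in B6, at least 8.06-fold lower. In order of size, Fabp6 was at 0.144, 1.02 and 4740 CPM in PWD and at 36.9, 281 and 1600 CPM in B6 wild-type mucosa. The part of gut position in these strain differences was not tested.

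Between Min mucosa and wild-type mucosa no tested member was called by edgeR or DESeq2, with 0 at an unadjusted p under 0.05. Of all genes 0.00732% were called, all higher, and 4 of the 7 members gave no information. Mcpt1 averaged 7.62 ± 14.4 CPM over the Min libraries and 1.14 ± 1.73 CPM over the wild-type libraries of the 4 backgrounds (SD, n = 12 each; log2 change 2.91 ± 1.68, edgeR quasi-likelihood adjusted p = 0.736). Under 1 effect shared by the backgrounds Mcpt1 (2.72 ± 0.74, unadjusted p = 0.00114, adjusted p = 0.266) and Mcpt2 (2.65 ± 0.79, unadjusted p = 0.00241, adjusted p = 0.362) were under 0.05 before adjustment and not called. The 533 reads of Mcpt1 in Min mucosa came mostly from the third B6 library (275) and from C5F1 (237).

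Kit, the receptor tyrosine kinase that mast cells share with the pacemaker cells of the gut muscle (interstitial cells of Cajal), differed between backgrounds and between adenoma and Min mucosa. It also had reads in all 8 organoid libraries, which are grown from epithelium (19.5 to 41.4 CPM, scaled separately, given at the end). B6 adenomas had 30.4, 25.5 and 20.9 CPM, B6 Min mucosa 35.6, 49.8 and 36.7 CPM, and B6 wild-type mucosa 34.4, 22.9 and 19.9 CPM. C5 adenomas had 45.8, 46.6 and 42.2 CPM, C5 Min mucosa 50.9, 60.01 and 55.4 CPM, and C5 wild-type mucosa 42.5, 51.9 and 56.8 CPM. The C5 range lay above that of B6 in adenoma, in Min mucosa and in wild-type mucosa. Of all genes tested, 40.5% did not overlap between C5 and B6 adenomas. That share was not counted for Min and wild-type mucosa.

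**Figure D5:**
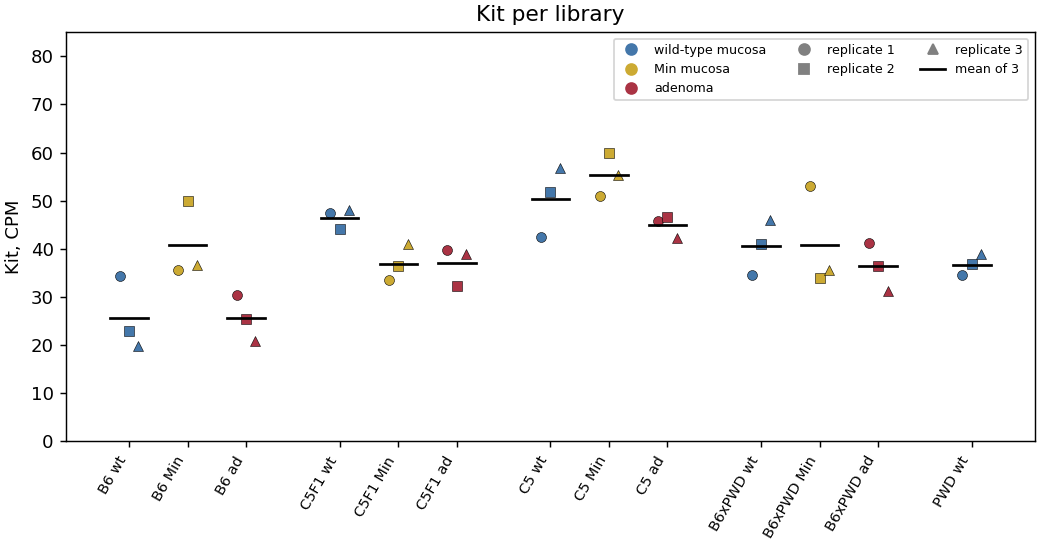
Kit in CPM, 1 point per library and the mean of each group of 3 as a line. The C5 libraries lie between 42.2 and 60.01 CPM and the B6 libraries between 19.9 and 49.8 CPM.

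Over the 3 tissues Kit was 0.73 ± 0.11 higher in C5 than in B6 on the log2 scale (50.2 ± 6.39 against 30.7 ± 9.63 CPM, SD, n = 9 each; edgeR quasi-likelihood adjusted p = 2.24e-05). In C5F1, with 1 PWD copy of chromosome 5, it was 0.40 ± 0.11 higher than in B6 (40.1 ± 5.63 CPM, adjusted p = 0.0148), and in B6xPWD 0.38 ± 0.11 higher (39.3 ± 6.86 CPM, adjusted p = 0.00658). The means of both F1 backgrounds lay within each other's spread. In Min mucosa the F1 libraries overlapped those of B6: C5F1 had 33.4, 36.4 and 40.9 CPM and B6xPWD 53.05, 33.9 and 35.6 CPM. C5F1 had 39.8, 32.2 and 38.96 CPM in adenoma and 47.3, 44.1 and 47.99 CPM in wild-type mucosa. B6xPWD had 41.3, 36.5 and 31.3 CPM in adenoma and 34.6, 41.1 and 45.9 CPM in wild-type mucosa. In adenoma and in wild-type mucosa all F1 libraries lay above the 3 B6 values. The share of all genes that separated in this way was not counted. All 3 calls held without each of 18 libraries in turn, with adjusted p up to 0.000169, 0.0465 and 0.0264. Under 1 effect shared by the tissues the F1 calls were lost (adjusted p = 0.0773 and 0.0715), and the B6xPWD call also when only the compared groups were fitted (0.0525). In PWD wild-type mucosa Kit was at 34.5, 36.8 and 38.9 CPM, all above the 3 B6 values, and was not called (0.49 ± 0.19, adjusted p = 0.072). Between PWD and B6, 29.2% of all genes tested did not overlap. On chromosome 5, 32.6% of 838 tested genes were called between C5 and B6, against 17.6% of 12248 on other chromosomes. All 10 smooth muscle genes also lay above 0 in C5 against B6 (median log2 change 0.37, 2 called). In C5F1 against B6, 8 of them lay above 0 and 2 below, and in B6xPWD all 10 lay below 0. The part of muscle or of epithelium in these Kit differences was not tested.

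The fall of Kit in adenoma was called in B6 (-0.66, given above; adjusted p = 0.0832 without the second Min mucosa library) and over the mean of 4 backgrounds. In C5 it was -0.31 ± 0.18 (adjusted p = 0.54) with no overlap, as for 22.2% of all genes tested. In B6xPWD it was -0.17 ± 0.19 (adjusted p = 0.59, edgeR quasi-likelihood test for both). Genes of the gut muscle fell with Kit. All 10 smooth muscle genes were called lower in adenoma over the mean of 4 backgrounds, among them Synm (-1.54 ± 0.31, adjusted p = 0.000127), Mylk (-1.33 ± 0.18, adjusted p = 3.37e-07), Myh11 (-1.32 ± 0.29) and Actg2 (-1.15 ± 0.32). Their summed level was 134 to 1494 CPM (median 687) in adenoma and 264 to 3057 CPM (median 1718) in Min mucosa. Of 5 genes of interstitial cells of Cajal, Etv1 (-1.02 ± 0.30, adjusted p = 0.00574) and Gjc1 (-0.82 ± 0.24, adjusted p = 0.00495) fell and Ano1, a chloride channel, rose (2.06 ± 0.16, adjusted p = 6.74e-12). The part of muscle or of epithelium in the Kit difference was not tested.

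Other genes known from mast cells that had enough counts to be tested did not follow the proteases as a group. Scarcer genes of this list, Tpsab1 and Mcpt9 among them, were not tested, and Tpsab1 had reads only in adenomas (given at the end). Of 20 listed, 13 were tested between adenoma and Min mucosa over the mean of 4 backgrounds and 4 were called, 2 in each direction (median log2 change -0.14, against 0.01 for all genes). Il1rl1 rose from 6.31 ± 3.19 to 82.9 ± 32.5 CPM (SD, n = 12 each; 3.71 ± 0.24 on the log2 scale, edgeR quasi-likelihood adjusted p = 8.21e-14), and Gata2 rose from 0.371 to 1.13 CPM (1.57 ± 0.40, adjusted p = 0.00162). Rgs13 (-0.75 ± 0.31, adjusted p = 0.0483), a regulator of G protein signalling, and Tph1 (-0.58 ± 0.23, adjusted p = 0.0396), which makes serotonin in gut epithelium too, fell. Hdc (0.84 ± 0.36, adjusted p = 0.0575) and the tryptase gene Tpsg1 (-0.23 ± 0.15, adjusted p = 0.232) were not called. Il1rl1 rose in C5 as well (7.66 ± 1.58 to 83.7 ± 17.1 CPM, SD, n = 3 each; adjusted p = 1.09e-05), where the proteases stayed near 0.

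Among 22 listed growth and homing factors 12 were tested, of which 6 rose and 3 fell (median 0.47). Il33 rose from 6.66 ± 3.52 to 44.8 ± 18.97 CPM (SD, n = 12 each; 2.85 ± 0.23, edgeR quasi-likelihood adjusted p = 8.39e-12), and Il3ra by 1.57 ± 0.36 (adjusted p = 0.000588). Kitl rose from 60.2 ± 14.01 to 91.02 ± 20.6 CPM (0.60 ± 0.10, adjusted p = 7.09e-06). Itgae (-0.65 ± 0.26, adjusted p = 0.0393), an integrin subunit that binds E-cadherin, and Ccr3 (-0.90 ± 0.31, adjusted p = 0.0188), a chemokine receptor known from eosinophils, fell the most. In C5 alone Il33 rose (2.00 ± 0.43, adjusted p = 0.00468) and Kitl was not called (0.45 ± 0.19, adjusted p = 0.323). Of 11 genes of IgE receptor signalling, the phospholipase gene Plcg1 rose (0.51 ± 0.12, adjusted p = 0.000615), the kinase gene Lyn (-0.63 ± 0.14, adjusted p = 0.00059) and the adaptor gene Gab2 (-0.46 ± 0.09, adjusted p = 9.33e-05) fell, and 8 were not called.

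None of 5 basophil markers passed the filter; their summed level was 0 to 2.33 CPM in adenoma and 0 to 0.328 CPM in Min mucosa, with Prss34 at 0 reads in all 24 of these libraries. Mcpt8, the basophil protease that lies in the chymase cluster, had at most 6 reads in a library. Among the 9 granule protease genes next to the chymases, Gzmb of cytotoxic lymphocytes was the only gene tested and fell (29.1 ± 20.3 to 8.88 ± 5.74 CPM, SD, n = 12 each; -1.60 ± 0.34, edgeR quasi-likelihood adjusted p = 0.000211). Of 5 tested neutrophil markers Ltf (3.62 ± 0.43, adjusted p = 3.6e-08), S100a9 (3.61 ± 0.69) and S100a8 (2.79 ± 0.74) rose, and none of 6 general leukocyte genes was called by edgeR, Ptprc (-0.30 ± 0.29, adjusted p = 0.43) and Coro1a (-0.06 ± 0.26, 0.878) among them, though all 6 were called higher in B6xPWD alone. The basophil gene Cd200r3 had 20 reads in adenoma and 4 in Min mucosa, and the eosinophil granule genes Epx and Prg2 had 3 against 11 and 55 against 54. Of the eosinophil list Ccr3 was the only gene tested. The epithelial gene Krt18 rose (1.51 ± 0.14, adjusted p = 3.39e-10) while Vil1 (-0.98 ± 0.12) and Cldn7 (-0.41 ± 0.14) fell, the endothelial gene Cdh5 rose (1.22 ± 0.15) and the fat cell gene Plin4 fell (-1.25 ± 0.31). Epcam (-0.19), Krt8 (0.05), Pecam1 (0.24), Adipoq (2.49) and Cfd (1.86) were not called. The part of these cells in the protease differences was not tested.

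Within groups, Mcpt1, Mcpt2 and Cpa3 varied together from library to library. Over the 39 libraries, deviations of log2 CPM from the group mean correlated at r = 0.954 between Mcpt1 and Mcpt2, 0.88 between Mcpt2 and Cpa3 and 0.84 between Mcpt1 and Cpa3 (Spearman 0.925, 0.677 and 0.679). Those of Mcpt1 with the scarcer Mcpt4, Cma1 and Tpsb2 correlated at r = 0.588, 0.419 and 0.416, with lower rank correlations (Spearman 0.349, 0.2 and 0.3). Kit correlated with none of them closely, from -0.288 with Cpa3 to 0.13 with Tpsb2. The genes most like Mcpt1 by this measure were Mcpt2, Cpa3, Ano7 (0.684), Mto1 (0.683) and Prss16 (0.669). Those most like Kit were Cds2 (0.762), Lipo1 (0.728), Snapin (0.725), Prkaa2 (0.715) and Mapk4 (0.708). The values of 1 library share its depth and scaling, so these correlations are descriptions.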

How the data were processed

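The deposited values are whole-number read counts per gene symbol, 1 column per library; per the submitters' processing notes, the authors used BWA, HTSeq and the mm10 build, with versions, read length and strand setting not given in the sources used here. Because mm10 is a C57BL/6 genome, reads of PWD alleles can align less well. HTSeq's summary categories (40.7 to 53.9% of a column) were left out. Members and gene lists were chosen with earlier results of these data known. Counts of 39 tissue libraries were fitted in R 4.3.3 with edgeR 4.0.16 (limma 3.58.1; TMM factors, filterByExpr with a minimum count of 10 and a total of 15, 1 mean per group, quasi-likelihood F-test, prior count 0.125). P-values were adjusted over 13657 genes by Benjamini-Hochberg, and a gene was called at an adjusted p under 0.05. All groups share 1 estimate of spread. A mean over backgrounds gives no information on a gene at 0 in both groups of a background. Correlations used log2 CPM with a prior count of 2. All 9 members are named; from each other list, the 2 largest rises and falls, preset genes and the first 2 markers. Same-numbered adenoma and Min mucosa libraries of a background deviated together in 12 of 12 pairs (r 0.107 to 0.455), so replicate numbers were taken as pairs from the data; the labels state no shared mouse. Alternatives were a replicate block, DESeq2 1.42.0 and its size factors, no filter, Rn45s left out, only the compared groups and each library left out. Over all tissue libraries, the block was the replicate number within a background, or the number alone in comparisons of levels between backgrounds. The model with 1 shared effect and the comparisons among adenomas were added after seeing the data. Replicates differed by more than counting noise (lowest chi-square per degree of freedom 7.81 over 39 pairs). Promoters are RefSeq's (GRCm38.p6), matched for 7 of 9 members.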

Additional observations from a re-analysis of the deposited data

Results flagged for a closer look

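Reads of mast cell genes also appeared in 8 libraries of cultured intestinal organoids, which no comparison above uses and which were scaled separately. Organoids are grown from epithelium, and no control library was set for this signal, so each gene was held against the limit of 3 reads. Kit was found in 8 of 8 libraries, from 113 to 367 reads (19.5 to 41.4 CPM), with 367 reads in the fourth C5 control library. The second AZA-treated B6 library held 11 reads of Mcpt1, 13 of Mcpt2, 6 of Cma1 and 4 of Tpsb2. Cpa3 reached 6 reads in the third C5 control library, Fcer1a 6 reads in the first AZA-treated B6 library and Ms4a2 7 reads in the second B6 control library. Mcpt1 had reads in 1 of 8 libraries, Mcpt2, Cma1, Cpa3 and Fcer1a in 2 each, and Tpsb2 and Ms4a2 in 3 each; Mcpt4 stayed at 2 reads or fewer. The source of these reads was not tested.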

How the results depend on the processing

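Calls on low-count members limit these results: DESeq2, fits of only the compared groups and single libraries changed several counts. Members called in B6 adenoma against Min mucosa were 4, and 7 with the replicate block, 1 with only the compared groups and 2 with DESeq2. For C5F1 the 6 calls became 3 and 2 in the latter fits, and for B6xPWD the 2 became 1 with only the compared groups. The mean of 4 backgrounds gave 7 in place of 4 under 1 common effect, which left 0 in C5F1 against B6 and 0 in B6xPWD against B6. PWD against B6 had 2 with DESeq2. In adenoma, C5 against B6 kept 3 with only the compared groups and 4 with DESeq2, B6xPWD against B6 had 0 with only the compared groups, and C5 against C5F1 had 1 with DESeq2. Leaving out 1 library gave 1 to 6 in B6, 0 to 8 in C5F1, 1 to 2 in B6xPWD and 3 to 5 for the mean of 4. It gave 0 to 1 for PWD against B6, 1 to 3 for B6xPWD against B6, and among adenomas 3 to 7 for C5 against B6, 1 to 2 for B6xPWD against B6 and 0 to 5 for C5 against C5F1. The causes were not tested. The replicate block changed no other calls than those given in the text. No count changed by over 1.5 times with DESeq2's size factors, without the filter or without Rn45s.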

Other observations

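Further mast cell and chymase-cluster genes were too scarce to test. Mrgprb1, Gzmf, Gzmg and Gzmn had no reads in any tissue library, and Mrgprb2 had reads only in C5F1 adenoma. Of the genes named next, only Tpsab1 is given for all tissues, and the others for adenomas alone. Tpsab1, a tryptase that C57BL/6 mice are known to lack in functional form, had 20 reads in the 12 adenomas and 0 in Min and wild-type mucosa, with at most 8 in a library (the third B6xPWD adenoma). Mcpt9 had 29 reads in adenoma, of which 12 were in the third C5F1 adenoma, and Mcpt8 had 17. Cma2 and Cyp11a1, chosen after their values were seen, had at most 22 and 11 reads in an adenoma. Of the 36-base windows of the Cma2 transcript 55.4% occurred in another chymase or tryptase transcript, and 22.4% of those of Mcpt9, so their reads cannot be told apart fully.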
